A study of Rattus norvegicus with 12 samples.

Results

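FGFR3/4KO RCS and wild-type (WT) RCS were compared in the absence of FGF18, to show how the transcriptome of chondrocytes lacking FGFR3 and FGFR4 differs before any FGF ligand is added. RCS is a chondrocyte line derived from the Swarm rat chondrosarcoma. The comparison was chosen by the sample labels alone and holds the 3 FGFR3/4KO and the 3 WT libraries of untreated cells (vehicle), which are 6 of the 12 libraries of the series. All cells were grown overnight in DMEM with adult bovine serum and antibiotics, so the vehicle groups were not free of serum growth factors. The other 6 libraries are of WT RCS and FGFR3/4KO RCS given FGF18 and entered the same model, so they bear on the filter and the estimate of spread of the vehicle comparison, while their own values are given here only side by side. Both FGFR3/4KO groups came from 1 clone made with CRISPR/Cas9, according to the labels, so the loss of the receptors and any other feature of that clone cannot be told apart. Expression was measured by QuantSeq, a 3′ end method whose read counts do not grow with the length of the transcript. Nothing in the sources says whether the replicates came from separate cultures beyond their being called biological, and p-values measure the spread between these libraries.

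FGF receptors are receptor tyrosine kinases that pass the signal of FGF ligands to the RAS-MAPK and PI3K pathways. In cartilage FGFR3 restrains the proliferation of growth plate chondrocytes, and activating mutations of the gene cause achondroplasia. Genes such as Etv5, Spred1 and Phlda1 are transcribed when the pathway is active and are widely used as its readout, while chondrocytes are defined by SOX9 and by the collagens and small proteoglycans of cartilage matrix.

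Of 32754 genes in the files, 7378 had enough reads to be tested, and 1418 of these could be named. Fgfr3 and Fgfr4 are not among the identifiers that could be paired with a name, so the targeted genes were not analysed here by name and the labels have no check from their transcripts. Reads on genes ranged from 669585 to 947730 in WT and from 373964 to 925006 in FGFR3/4KO, and 3 reads correspond to 3.17 to 8.02 CPM (counts scaled to a common library size) in these libraries. FGFR3/4KO replicate 2 was the shallowest library. It also stood apart from FGFR3/4KO replicates 1 and 3 on the second principal component of log2 CPM, which held 20.2% of the variance, whereas the first held 48.5% and separated the genotypes. The share of reads set aside for low alignment quality was 77.4 to 79.8% in WT and 72.3 to 74.6% in FGFR3/4KO, and the share counted on genes was 12.5 to 14.6% in WT and 17.0 to 18.6% in FGFR3/4KO. Neither range overlapped, with an exact two-sided permutation p of 0.1 for each, which is the smallest that 3 against 3 can give (adjusted over 4 read classes, 0.1). The part of these shares in the results was not tested.

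Both genotypes carried chondrocyte markers at high levels. The 8 of 18 listed chondrocyte markers that could be named, among them Sox9, Prelp, Fmod and Mgp, summed to between 17430 and 18640 CPM in WT and between 16800 and 19770 CPM in FGFR3/4KO. Named markers of hypertrophic chondrocytes or osteoblasts, of endothelium and of leukocytes summed to at most 16.8 CPM in any of the 6 libraries. Neural or glial markers summed to 95.3 to 118 CPM in WT and to 185 to 218 CPM in FGFR3/4KO, and of the 3 of 9 markers that were tested 1, Mapt, passed as higher. Mapt alone measured 55.8 to 76.9 CPM in WT and 139 to 171 CPM in FGFR3/4KO, whereas Gap43 had 10, 2 and 10 reads in WT and 0 in each FGFR3/4KO library, and Nell2 had 9, 11 and 15 reads against 5, 0 and 7. Hepatocyte markers summed to 1.97 to 16.1 CPM in WT and to 30.8 to 36.8 CPM in FGFR3/4KO, and the 1 of 8 that was tested, Alb, passed as higher. The part of these markers in the results was not tested.

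With vehicle, 590 genes were higher in FGFR3/4KO RCS, which is 8.00% of those tested, and 448 were lower (6.07%), at an adjusted p under 0.05. Without any model, all FGFR3/4KO libraries lay above all WT libraries for 1258 genes and below them for 1265, 17.1% of the tested genes in either case. Of the called genes, 246 rose (3.33% of tested genes) and 196 fell (2.66%) at least 2-fold, and 17 rose and 12 fell at least 8-fold. The median log2 fold change was -0.01 over all tested genes. Leaving out FGFR3/4KO replicate 2 gave 503 genes higher and 353 lower. Leaving out FGFR3/4KO replicate 1 or 3 lowered the count of lower genes by over 1.5 times, to 259 and 258, and leaving out WT replicate 2 lowered it to 294.

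The largest rises among named genes included secreted and endoplasmic reticulum (ER) proteins, transcription factors and enzymes. Fam69b, a cysteine-rich protein of the ER, measured 39.1, 36.7 and 25 CPM in the WT libraries and 219, 269 and 191 CPM in the FGFR3/4KO libraries, a log2 fold change of 2.75 ± 0.23 (SE; adjusted p = 3.28e-09). Smpd3, the neutral sphingomyelinase that cartilage and bone need for normal growth, measured 194, 195 and 192 CPM in WT against 642, 694 and 654 CPM in FGFR3/4KO (log2 fold change 1.77 ± 0.13, adjusted p = 3.68e-10). For both genes the replicates lay far from those of the other genotype, and those of Smpd3 also lay close together. Timp3, an inhibitor of matrix metalloproteinases, rose from 7.25, 10.9 and 3.0 CPM to 26, 31.2 and 30.7 CPM (log2 fold change 2.11 ± 0.41, adjusted p = 7.21e-04). E2f6, a repressor of the E2F family, rose from 20.3, 13.6 and 17.0 CPM to 55.1, 68.0 and 48.2 CPM. Unc5b, a netrin receptor, rose from 44.9, 39.4 and 50.0 CPM to 101, 111 and 148 CPM. Zcchc2 and Tmem246 were also among the 12 largest rises, with log2 fold changes of 2.26 and 1.49, and the other 5 of the 12 (Etv5, Creb3l1, Sdf2l1, Qdpr and Zfp148) are described with their groups.

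**Figure D1:**
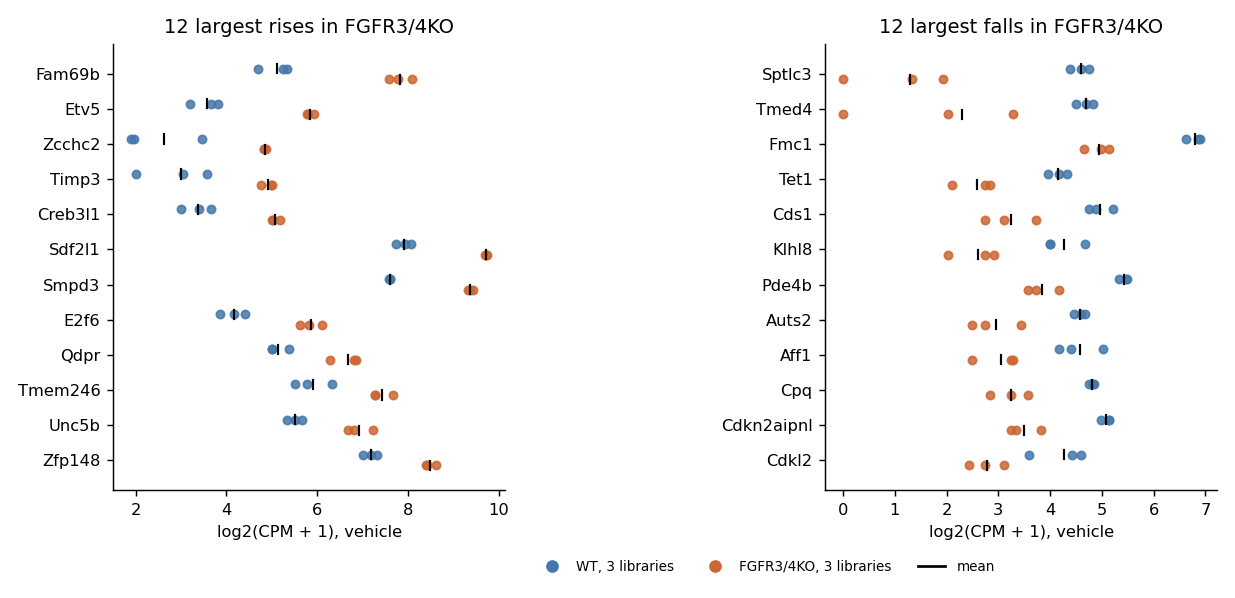
Levels of the 12 named genes that rose most and the 12 that fell most in FGFR3/4KO RCS with vehicle, on a log2(CPM + 1) axis, with a point for each of the 3 WT (blue) and 3 FGFR3/4KO (orange) libraries and a black tick at the group mean. No gene's genotypes overlap, which the choice of the genes required, and the replicates of Smpd3 lie close together at 192 to 195 CPM in WT and 642 to 694 CPM in FGFR3/4KO.

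Among the falls, the largest was that of Sptlc3, a subunit of serine palmitoyltransferase, the enzyme that starts sphingolipid synthesis. It measured 26.1, 23.1 and 20.0 CPM in WT and 1.53, 2.83 and 0 CPM in FGFR3/4KO (log2 fold change -4.26 ± 0.69, adjusted p = 9.62e-05). The FGFR3/4KO values lie below the level of 3 reads in their libraries, so that the size of this fall is poorly set. Fmc1, an assembly factor of the mitochondrial ATP synthase, fell from 117, 114 and 97.9 CPM to 30.6, 34 and 24.1 CPM (log2 fold change -1.94 ± 0.22, adjusted p = 6.85e-07). Pde4b, a phosphodiesterase that degrades cAMP, fell from 39.1, 43.5 and 43.0 CPM to 12.3, 17.0 and 11 CPM. Tmed4, a member of the p24 family of cargo proteins, fell from 27.5, 21.8 and 25 CPM to 3.06, 0 and 8.77 CPM. Cpq and Cdkn2aipnl fell by 1.61 and 1.59 on the log2 scale. Auts2, Tet1 and Cdkl2 also passed, with log2 fold changes of -1.64, -1.80 and -1.59. These calls were not stable: that of Auts2 was lost without WT replicate 2 or FGFR3/4KO replicate 1 (highest adjusted p over all alternative fits, 0.104), that of Tet1 with DESeq2 and without either of these, WT replicate 3 or FGFR3/4KO replicate 3 (likewise 0.162), and that of Cdkl2 without WT replicate 1, WT replicate 2 or FGFR3/4KO replicate 3 (likewise 0.140).

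The 2 largest rises and 2 largest falls among genes without a name were larger than these. The identifier ENSRNOG00000007300 had 46.4, 54.4 and 44.0 CPM in WT and no read in any FGFR3/4KO vehicle library, so it was at least 31.2-fold lower, counting 3 reads over the 3 libraries as the limit. ENSRNOG00000007091 measured 27.5, 25.8 and 20.0 CPM in WT and 0, 0 and 1.10 CPM in FGFR3/4KO. In the other direction, ENSRNOG00000013484 rose from 24.6, 13.6 and 21.0 CPM to 230, 261 and 255 CPM (log2 fold change 3.64 ± 0.22), and ENSRNOG00000033090 from 0, 4.08 and 3.0 CPM to 36.8, 31.2 and 29.6 CPM.

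The differences were also read along the chromosomes. Named genes were put in chromosome order by matching their symbols to RefSeq genes of the assembly GRCr8, which placed 1410 of 1418, and only the order was used, since the counts were made on rn6. A running median of the log2 fold change over 11 neighbouring genes stayed at or beyond 0.4 in size for at least 10 genes in a row in 6 places. These 6 runs hold 109 genes. They were chosen by the vehicle values themselves and are a description, for which no test is given. Of the named genes inside the runs 44.0% were called, and of those outside 11.6%, beside 14.1% of all tested genes. The runs hold 34 of the 121 named genes that were higher and 14 of the 78 that were lower and had a position.

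The longest run goes from Umps to Mcm4, the last named gene of its chromosome, and holds 49 genes. Of these 47 had a log2 fold change above 0, with a median of 0.73 (quartiles 0.54 and 1.02), and 26 were called higher and 0 lower. The summed level of the 49 genes was 4368, 4209 and 4244 CPM in the WT libraries and 7685, 7750 and 7824 CPM in the FGFR3/4KO libraries, a ratio of 1.81. FGFR3/4KO replicate 2, which stood apart on other genes, did not stand apart here. The other 57 named genes of the same chromosome had a median of -0.20. Wdr5b had a log2 fold change of -0.55 that did not pass, and its neighbour Dirc2, which lies just before Umps, had 1.31 and was called. The run holds genes of unrelated function, such as Zfp148, a zinc finger transcription factor, at a log2 fold change of 1.32, Tfrc, the transferrin receptor, at 0.87, Ap2m1, a clathrin adaptor subunit, at 0.84, Psmd2, a proteasome subunit, at 0.71, Eif4a2, a translation initiation factor, at 0.73, Dgcr8, a cofactor of Drosha in microRNA processing, at 0.83, and Ube2l3, a ubiquitin-conjugating enzyme, at 0.89, all of which rose. Opa1, Tra2b and Mcm4 in the same run had log2 fold changes of 0.13, 0.16 and 0.10 that did not pass, and Meltf and Senp2 lay below 0.

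A second raised run, from Anapc4 to Wfs1, lies on the chromosome that carries Fgfr3. All 13 of its genes had a log2 fold change above 0 (median 0.92), and 8 were called higher, among them Qdpr at 1.53, Crmp1 at 1.51, Med28 at 1.29, Lyar at 1.03 and Lap3 at 1.0. Their summed level was 561, 490 and 523 CPM in WT and 990, 1000.0 and 949 CPM in FGFR3/4KO, a ratio of 1.87. Fgfr3 itself lies between Grpel1 and Maea, with 1 named tested gene, Grpel1, between it and the end of this run. The 5 named genes on the side of the run (Tmem128, Lyar, Crmp1, Wfs1 and Grpel1) had a median log2 fold change of 0.98, with 5 of 5 above 0, and the 5 on the other side (Maea, Ctbp1, Slc35e4, Pes1 and Sec14l2) had a median of -0.17, with 1 of 5 above 0. For Fgfr4, 3 named tested genes share its chromosome, which is too few for such a description.

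**Figure D2:**
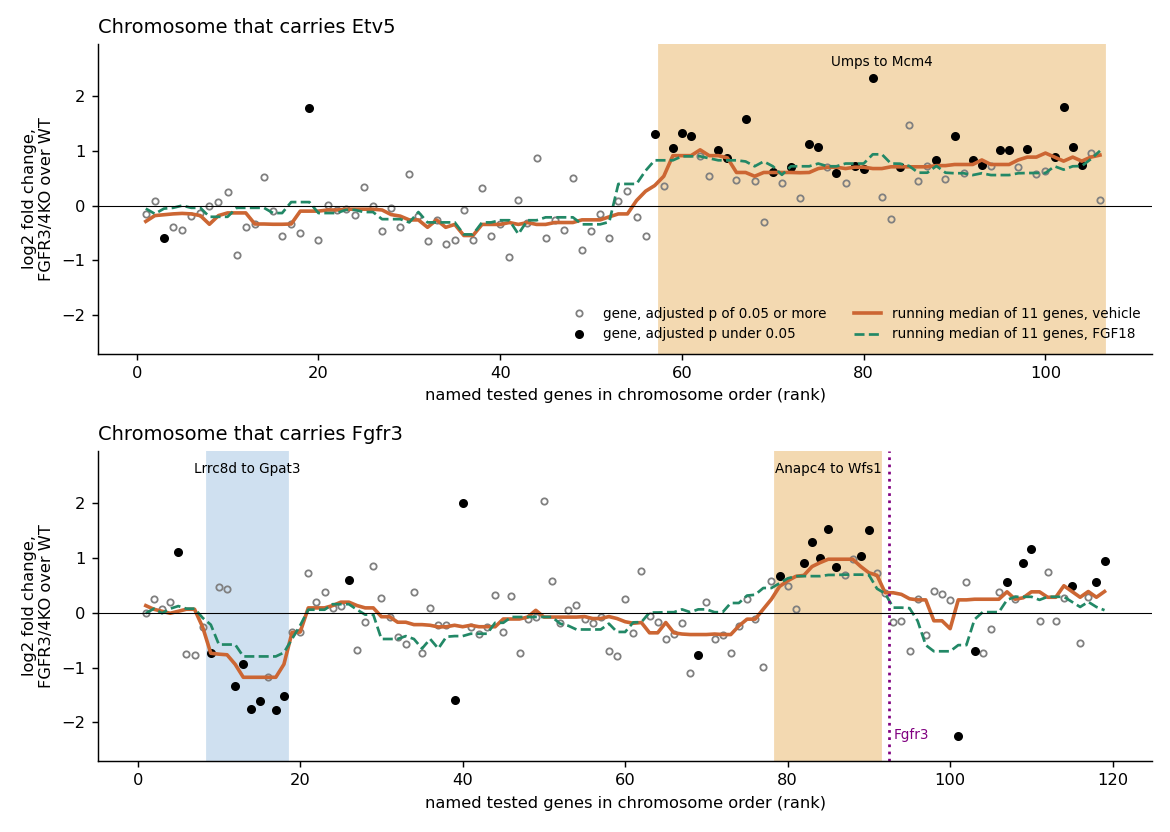
Log2 fold change of FGFR3/4KO over WT with vehicle for each named tested gene, against its rank along the chromosome that carries Etv5 (top) and the one that carries Fgfr3 (bottom), with filled points for genes called at an adjusted p under 0.05, running medians of 11 genes for vehicle (orange) and for FGF18 (green, dashed), shaded runs and a dotted line at Fgfr3. The running median steps from below 0 to about 0.7 before Umps and stays there to the end of the chromosome, and on the other chromosome it is raised just ahead of Fgfr3 and lowered between Lrrc8d and Gpat3.

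The same chromosome holds a lowered run of 10 genes from Lrrc8d to Gpat3, with 74 named tested genes between it and Fgfr3. Its median log2 fold change was -1.25, and 7 of the 10 were called lower, including Cds1 at -1.77 and Klhl8 at -1.76, with CPM of 26.1, 28.6 and 36 against 12.3, 5.67 and 7.67 for Cds1, a CDP-diacylglycerol synthase. Aff1 at -1.61 and Gpat3 at -1.51 are members of this run too. Aff1 lost its call when any single vehicle library was left out (highest adjusted p over all alternative fits, 0.183), and Klhl8 without WT replicate 1 or FGFR3/4KO replicate 1 (likewise 0.0969). The other 3 runs were lowered and smaller in size, from Mpped2 to Mga (16 genes, median -0.52, 2 called lower), from Tbc1d20 to Stx16 (10 genes, -0.43, 1 called) and from Lrp6 to Ergic2 (11 genes, -0.68, 4 called).

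The runs were chosen on vehicle fold changes, from genes and a model set by all 12 libraries, and the fold changes with FGF18 were then read for the same genes. In the run from Umps to Mcm4 the median log2 fold change of FGFR3/4KO over WT was 0.72 with FGF18, 44 of 49 genes lay above 0, and 30 were called higher and 2 lower, beside 16.9% of all tested genes called higher with FGF18. The summed levels were 4470, 4404 and 4713 CPM in WT and 7994, 7808 and 7884 CPM in FGFR3/4KO. For the run from Anapc4 to Wfs1 the median was 0.69 and 13 of 13 genes lay above 0. The run from Lrrc8d to Gpat3 had a median of -0.85, with 2 called lower and 1 higher, and its summed levels of 366, 359 and 474 CPM in WT lay above those of 312, 292 and 284 CPM in FGFR3/4KO. The run from Tbc1d20 to Stx16 had a median of -0.14. The lowered runs from Mpped2 to Mga and from Lrp6 to Ergic2 had medians of -0.52 and -0.71 with FGF18. Of their genes 12 of 16 and 10 of 11 lay below 0. In the first run 5 were called lower and 2 higher. In the second 7 were called lower and 0 higher, beside 17.0% of all tested genes called lower with FGF18. Their summed levels were not lower in FGFR3/4KO with FGF18, with ratios of 1.03 and 1.10 to WT beside 0.747 and 0.904 with vehicle. Mgp held most of the sum of the second run, at a mean of 11390 of 12140 CPM in WT with FGF18. Whether its place in a run plays a part in a single gene's difference was not tested, and the genes below that lie in one are named as such.

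**Figure D3:**
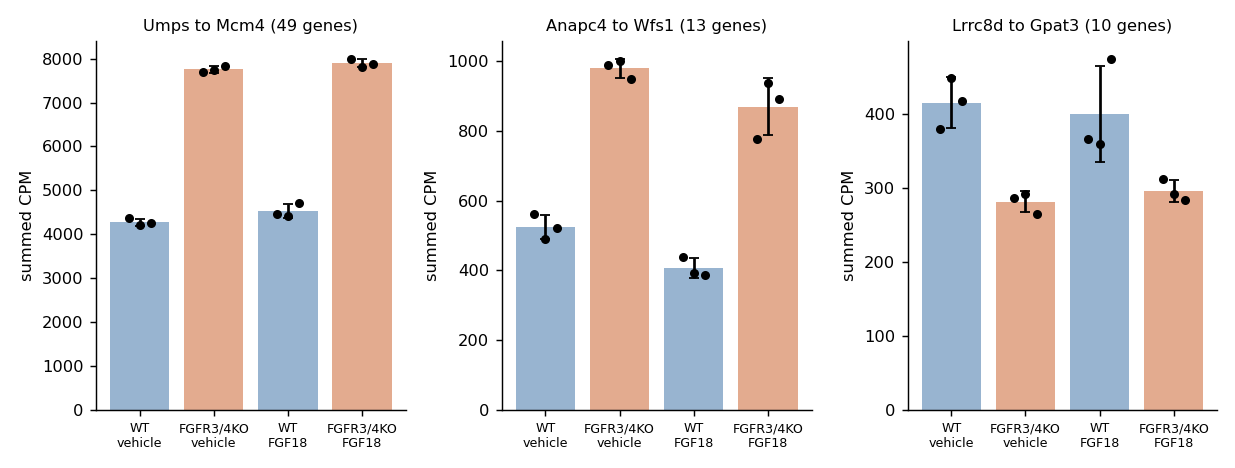
Summed CPM of the genes of 3 runs in each of the 12 libraries (points), with the group mean (bar) and SD (error bar, n = 3), for WT (blue) and FGFR3/4KO (orange) with vehicle or FGF18. In the runs from Umps to Mcm4 and from Anapc4 to Wfs1 every FGFR3/4KO library lies above every WT library, and in the run from Lrrc8d to Gpat3 every one lies below.

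Of 19 gene lists for pathways and functions of chondrocytes, with 310 named members tested, 44 members were higher and 16 lower, which is 19.4% called beside 14.1% of all tested genes (8.00% higher and 6.07% lower). The lists were chosen with earlier results of these data known, so their shares are a description. No list was tested against the share of all tested genes. Without the 23 members that lie in a run, 38 were higher and 15 lower.

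The list of FGF-ERK output genes had 23 genes, of which 10 could be named and 8 were tested. Its Spry and Dusp genes and Etv4 could not be named, so the 8 do not stand for the whole list. Of the 8 tested members 1 was higher and 0 lower with vehicle (12.5%, near the 14.1% of all tested genes). The gene that rose was Etv5, an ETS transcription factor that FGF signaling normally induces. Etv5 measured 11.6, 8.16 and 13 CPM in WT and 59.8, 53.8 and 54.8 CPM in FGFR3/4KO (log2 fold change 2.33 ± 0.31, adjusted p = 6.80e-06). It lies in the run from Umps to Mcm4, whose genes had a median of 0.73, and it had the largest value of that run. The remaining 7 members did not pass. Phlda1, the most abundant, had 141, 118 and 136 CPM in WT and 121, 105 and 122 CPM in FGFR3/4KO. Spred1, an inhibitor of RAS-ERK signaling, had a log2 fold change of -0.79 with an SE of 0.58 at 4.38 to 11.6 CPM, and it lies in the run from Mpped2 to Mga. Myc stood at 0.60 ± 0.44, Ets2 at 0.33 ± 0.25, Elk3 at 0.12 ± 0.24 and Tnfrsf12a at -0.39 ± 0.33. Vgf had at most 1.53 CPM in any vehicle library, which is below the level of 3 reads. A difference in the low genes of this list smaller than their errors was not detectable at this depth. Of the 12 tested members of the MAPK cascade, 0 passed in either direction, at a median of -0.13, and 11 of the 12 lay below 0. By edgeR's quasi-likelihood test 0 of the 12 had an unadjusted p under 0.05, and DESeq2 called 0.

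With FGF18, 6 of the 8 were lower in FGFR3/4KO than in WT, beside 17.0% of all tested genes, and 0 were higher. Etv5 and Myc did not pass. The log2 fold change was -2.91 for Phlda1, -2.08 for Spred1, -1.10 for Tnfrsf12a, -0.97 for Ets2 and -0.76 for Elk3, and Vgf, with no read in any FGFR3/4KO library given FGF18, was the sixth. The genotype difference itself changed with FGF18 for Phlda1, Ets2 and Etv5 (adjusted p of the interaction 1.80e-09, 0.0139 and 0.00126). The genotype difference of Etv5 was 0.47 with FGF18 and did not pass there.

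**Figure D4:**
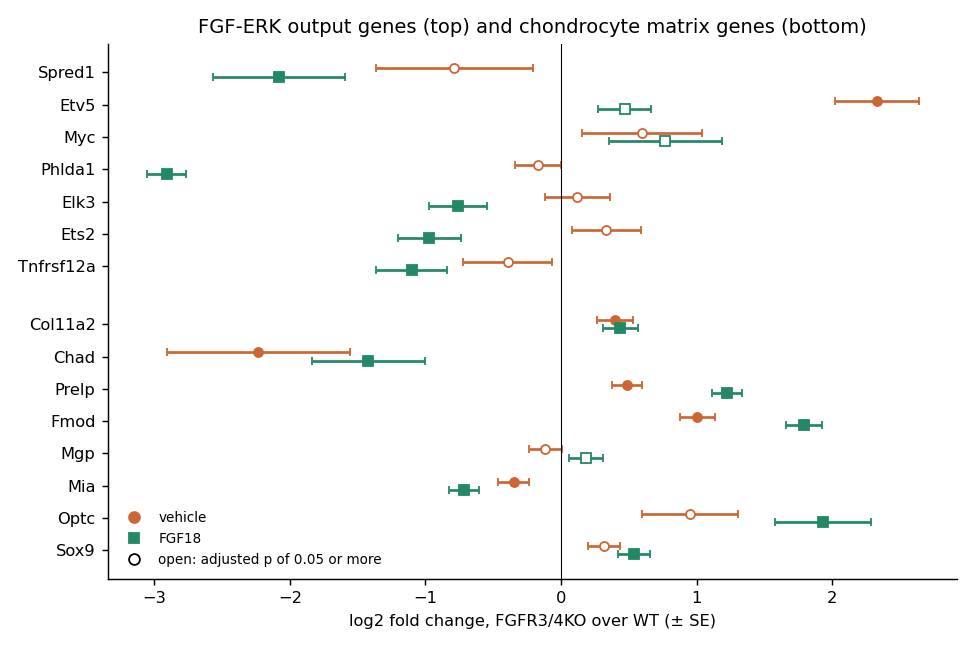
Log2 fold change of FGFR3/4KO over WT with its SE for FGF-ERK output genes (top) and chondrocyte matrix genes (bottom), with vehicle (orange circles) and with FGF18 (green squares), filled where the adjusted p is under 0.05; Vgf is left out for its few reads. With vehicle, Etv5 is the single filled point of the upper group and lies above 0, while with FGF18 Phlda1, Spred1, Tnfrsf12a, Ets2 and Elk3 lie below 0.

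The cartilage matrix genes that could be tested changed in both directions. Their list had 23 genes, of which 10 could be named. Col2a1, Acan, Comp and the collagen IX genes could not, so the tested members do not stand for the whole list. Of 8 tested members, 3 were higher and 2 lower (62.5% called, beside 14.1% of all tested genes), with a median log2 fold change of 0.36 beside -0.01 over all tested genes. Fmod, a small proteoglycan that binds collagen fibrils, rose from 433, 487 and 420 CPM to 933, 940 and 822 CPM (log2 fold change 1.01 ± 0.13, adjusted p = 5.60e-06). Prelp, another leucine-rich proteoglycan, rose from 2178, 2286 and 2044 CPM to 2926, 3184 and 3017 CPM (0.49 ± 0.11, adjusted p = 0.00305). Col11a2, a chain of the cartilage collagen XI, rose by 0.40 ± 0.13, and Mia, a protein secreted by chondrocytes, fell from 2014, 1766 and 1849 CPM to 1486, 1493 and 1438 CPM. Both calls sat near the threshold (adjusted p = 0.0414 and 0.0380) and were lost in 7 and 9 of 19 alternative fits, among them those without WT replicate 2, WT replicate 3, FGFR3/4KO replicate 1 or FGFR3/4KO replicate 2 for both. Chad, which anchors chondrocytes to collagen, fell from 14.5, 9.52 and 8.0 CPM to 3.06, 2.83 and 1.10 CPM (-2.23 ± 0.68, adjusted p = 0.0251), a call lost with DESeq2 and without WT replicate 1, FGFR3/4KO replicate 1 or FGFR3/4KO replicate 3 (highest adjusted p over all alternative fits, 0.169). Sox9, the master regulator of chondrocytes, had 1401, 1406 and 1510 CPM in WT and 1866, 1504 and 1986 CPM in FGFR3/4KO, with an adjusted p of 0.0772, and Mgp overlapped between the genotypes at 8812 to 12040 CPM. With FGF18, Fmod and Prelp differed more, by 1.79 and 1.22, and both interactions passed (adjusted p = 0.00505 and 0.00205).

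Of 9 tested genes of other matrix and basement membrane, 2 were higher and 0 lower (22.2% called, median 0.26). Col6a2, a chain of collagen VI, which surrounds chondrocytes, rose from 206, 161 and 211 CPM to 458, 464 and 423 CPM (1.21 ± 0.16, adjusted p = 5.63e-06), and Lamc1, the laminin γ1 chain, by 0.80 ± 0.19. Among 9 proteases and inhibitors, Timp3, Timp2 and Capn6 were higher and Cpq lower (44.4% called). Timp2, a second inhibitor of metalloproteinases, rose from 348, 315 and 281 CPM to 513, 643 and 501 CPM (0.80 ± 0.14). Capn6, a calpain-like protein without protease activity, rose from 177, 180 and 172 CPM to 354, 351 and 356 CPM, with all replicates within a few CPM of each other. The differences of Col6a2, Timp2 and Capn6 were smaller or of the other sign with FGF18, at -0.50, -0.24 and 0.09, and for all of them the interaction passed (adjusted p = 4.25e-06, 5.56e-04 and 0.00123).

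Of 16 genes of adhesion and the cell surface, 4 were higher and 1 lower (31.2% called, beside 14.1%). They were Unc5b, Itga6, Cd82 and Itgb5, and Gja1. Itgb5, the integrin β5 chain, rose from 270, 254 and 218 CPM to 435, 583 and 522 CPM (1.05 ± 0.16) and lies in the run from Umps to Mcm4. Cd82, a tetraspanin, rose from 114, 122 and 113 CPM to 274, 280 and 192 CPM with vehicle, but was lower in FGFR3/4KO with FGF18 (-1.31), with an interaction at an adjusted p of 2.06e-07. Gja1, which encodes connexin 43, fell from 66.7, 65.3 and 66.0 CPM to 32.2, 25.5 and 39.5 CPM (-0.96 ± 0.22, adjusted p = 0.00391). Of 14 secreted ligands and receptors, 6 were higher and 0 lower (42.9% called, beside 14.1%), with the highest median of the 19 lists, 0.70, and 5 of the 14 lay below 0. Tgfb2, a ligand of the TGF-β family, rose from 236, 195 and 221 CPM to 509, 493 and 542 CPM (1.25 ± 0.17, adjusted p = 9.79e-06). Pdgfa, a platelet-derived growth factor chain, rose from 14.5, 13.6 and 13 CPM to 35.2, 25.5 and 55.9 CPM (1.60 ± 0.32), and C1qtnf1 from 2.9, 2.72 and 2.0 CPM to 13.8, 11.3 and 15.3 CPM (2.43 ± 0.58). Disp1, which releases Hedgehog ligands from the cell, rose by 1.23 ± 0.29, Vasn, which binds TGF-β, by 1.16 ± 0.31 and Crim1 by 0.65 ± 0.21. The genotypes overlapped for Crim1, at 59.4, 106 and 71.0 CPM in WT and 146, 96.3 and 122 CPM in FGFR3/4KO, and its call was lost with DESeq2, with the replicate block and without any 1 of 4 vehicle libraries.

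**Figure D5:**
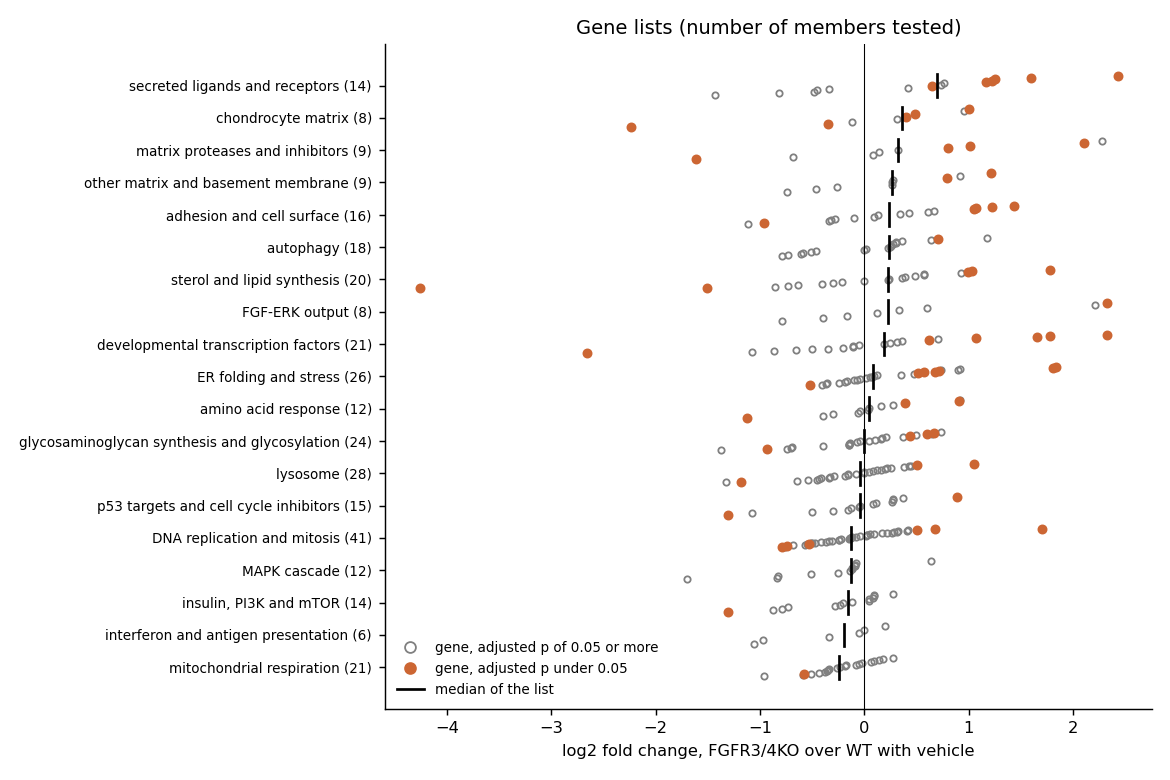
Log2 fold change of FGFR3/4KO over WT with vehicle for every tested member of the 19 gene lists, ordered by median (black tick), with filled points for members called at an adjusted p under 0.05 and the number of members tested in brackets. Secreted ligands and receptors have the highest median (0.70) and mitochondrial respiration the lowest (-0.24), and most members of most lists are open points around 0.

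Genes of ER folding and stress gave 6 higher and 1 lower of 26 (26.9% called, beside 14.1% of all tested genes, median 0.08). Sdf2l1, a component of ER chaperone complexes, rose from 243, 266 and 212 CPM to 861, 836 and 823 CPM (1.81 ± 0.15, adjusted p = 1.78e-09). Its partner Dnajb11, a co-chaperone of BiP, rose from 142, 154 and 141 CPM to 227, 232 and 238 CPM (0.68 ± 0.14, adjusted p = 0.00122). Both lie in the run from Umps to Mcm4, and without the runs 4 of 23 members were higher and 1 lower. Of those 4, Creb3l1, an ER-bound transcription factor that promotes collagen secretion in bone, rose from 11.6, 9.52 and 7.0 CPM to 35.2, 31.2 and 31.8 CPM (1.83 ± 0.33, adjusted p = 2.60e-04), and Cnpy2 rose by 0.72 ± 0.12 and Atf6b by 0.57 ± 0.17. Sec63 was the fourth. Fkbp9, a prolyl isomerase of the ER, fell from 897, 951 and 822 CPM to 639, 575 and 639 CPM (-0.52 ± 0.12). The abundant members Rrbp1, Calu and Canx did not pass. The difference of Creb3l1 was 0.24 with FGF18, and its interaction passed (adjusted p = 0.0106).

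Of 28 tested lysosome genes 2 were higher and 1 lower with vehicle (10.7% called, near the 14.1% of all tested genes), at a median of -0.04. Psap, the precursor of the saposins, rose from 822, 906 and 831 CPM to 1249, 1201 and 1172 CPM (0.50 ± 0.11, adjusted p = 0.00331). Lamp2, a lysosomal membrane protein, rose from 8.70, 24.5 and 25 CPM to 41.4, 45.3 and 39.5 CPM (1.05 ± 0.31; not called without WT replicate 1, FGFR3/4KO replicate 1 or FGFR3/4KO replicate 3), and Abcb9, a peptide transporter, fell from 58.0, 62.5 and 54.0 CPM to 33.7, 17.0 and 23 CPM (-1.18 ± 0.25). Of 18 autophagy genes 1 rose, Atg12 (0.71 ± 0.16), which is conjugated to Atg5, and 0 fell (5.56% called). Sqstm1, the cargo receptor p62, had a log2 fold change of 0.25 ± 0.18. With FGF18, 11 of the 28 lysosome genes were lower in FGFR3/4KO and 0 higher, beside 17.0% of all tested genes lower and 16.9% higher. The interaction passed for 4 of the 28, near the 10.9% of all tested genes.

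Of 41 genes of DNA replication and mitosis, 3 were higher and 3 lower (median -0.13), which at 14.6% is near the 14.1% of all tested genes. Foxm1, a transcription factor of the G2 phase, rose from 142, 122 and 138 CPM to 213, 261 and 182 CPM (0.67 ± 0.16), and Cenpf by 0.51 ± 0.15. E2f6, given above, was the third. Rpa1 and Pole4 fell by 0.79 and 0.74 on the log2 scale, and Rfc2, a subunit of the clamp loader, fell from 542, 536 and 477 CPM to 383, 343 and 348 CPM. With FGF18, 29 of the same 41 genes were higher in FGFR3/4KO and 1 lower, at a median of 1.12. Of all tested genes, 16.9% were higher and 17.0% lower with FGF18. The interaction passed for 24 of the 41, beside 10.9% of all tested genes. In vehicle the p53 targets and cell cycle inhibitors showed 1 higher (Cdip1) and 1 lower (Sesn1) of 15 (13.3% called, near the 14.1% of all tested genes). Cdkn1a, the inhibitor p21, had a log2 fold change of 0.28 ± 0.14 that did not pass. Sesn1, a stress-induced inhibitor of mTORC1, fell from 44.9, 36.7 and 43.0 CPM to 21.4, 14.2 and 14.2 CPM (-1.31 ± 0.30, adjusted p = 0.00359). It was the 1 member of 14 in the insulin, PI3K and mTOR list that passed (7.14% called, beside 14.1% of all tested genes).

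Of 12 genes of the amino acid response, 2 were higher and 1 lower (25% called, beside 14.1%). Slc7a1, a transporter of cationic amino acids, fell from 161, 173 and 162 CPM to 62.8, 113 and 64.7 CPM (-1.13 ± 0.20, adjusted p = 2.96e-04), with FGFR3/4KO replicate 2 above the other replicates. Slc1a4, a transporter of neutral amino acids, rose from 89.9, 88.4 and 102 CPM to 168, 184 and 177 CPM (0.91 ± 0.21). Of 20 genes of sterol and lipid synthesis, Smpd3, Smpd4 and Agpat3 were higher and Sptlc3 and Gpat3 lower, (25% called), and of these Smpd4 and Gpat3 lie in runs. Of 24 genes of glycosaminoglycan synthesis and glycosylation 3 were higher and 1 lower (16.7% called), at a median of 0.00. The higher ones, Fam20c, St6gal1 and Pmm2, lost their calls in 7, 7 and 8 of 19 alternative fits. Gfpt2, which feeds hexosamine synthesis, fell from 78.3, 120 and 89.9 CPM to 49.0, 53.8 and 49.3 CPM (-0.93 ± 0.22, adjusted p = 0.00421). Of 21 genes of mitochondrial respiration, 0 were higher and 1, Atp5j, lower (4.76% called), at the lowest median of the lists (-0.24), with 16 of the 21 below 0. The call of Atp5j (adjusted p = 0.0393) was lost in 8 of 19 alternative fits, the replicate block and DESeq2 among them.

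Developmental transcription factors gave 5 higher and 1 lower of 21 (28.6% called, beside 14.1%). Besides Etv5 they were Runx1, a regulator of chondrocyte and blood cell differentiation, which rose from 7.25, 10.9 and 5.00 CPM to 21.4, 19.8 and 32.9 CPM (1.77 ± 0.40, adjusted p = 0.00262; not called without FGFR3/4KO replicate 3), Tead3, Hlx and Foxn3. Foxn3 was the least stable of these, since its call was lost in 11 of 19 alternative fits. Hoxd9, a gene of limb patterning, fell from 17.4, 16.3 and 8.99 CPM to 0, 0 and 4.38 CPM (-2.66 ± 0.72, adjusted p = 0.0125), and was not called without FGFR3/4KO replicate 1. Of 6 tested genes of interferon and antigen presentation 0 passed edgeR's quasi-likelihood test, 1 had an unadjusted p under 0.05 and DESeq2 called 0.

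The FGF18 libraries share the model, and its estimate of spread, with the vehicle libraries, but not their samples. Of the 590 genes higher with vehicle, 334 (56.6%) were also called higher with FGF18, where 1247 genes were higher (16.9% of those tested), so that the shared genes were 26.8% of the latter. Of the 448 lower genes 247 (55.1%) were also lower, out of 1253 (17.0%) that were lower with FGF18, and they were 19.7% of these. Of the 1038 vehicle calls 850 (81.9%) had the same sign with FGF18, and 42 genes were called higher with vehicle but lower with FGF18, and 18 the reverse. The genotype difference changed with FGF18 for 802 genes (10.9%), of which 240 were among the vehicle calls. Among the leading genes, Fam69b, Smpd3, Sdf2l1, Qdpr, Pde4b and Cpq had differences of 2.63, 2.19, 1.59, 1.58, -1.83 and -1.83 with FGF18. These were close to their vehicle values. Other leading genes differed less with FGF18. Etv5 had 0.47 in place of 2.33, Creb3l1 0.24 in place of 1.83, and Timp3 1.21 in place of 2.11. Sptlc3 had -2.21 in place of -4.26, Tet1 -0.47 in place of -1.80, and Cds1 -0.98 in place of -1.77. Auts2 had 0.46 in place of -1.64. Of the genes named here the interaction passed for Etv5, Creb3l1 and Auts2.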

How the data were processed

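Total RNA (100 ng) was made into QuantSeq 3′ libraries, which were read from one end over 75 bases. The deposited values are counts per gene, not normalized. The authors had obtained them with htseq-count after trimming by Trim Galore and alignment by STAR, with rn6 as the genome. Versions are not given in the sources used here. The gene model is named as Gencode v19 while the identifiers are rat Ensembl genes. Reads of low alignment quality, on no gene or ambiguous between genes were left out of the gene totals.

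All 12 libraries entered 1 model with a mean for each of 4 groups in edgeR 4.0.16 (R 4.3.3). Genes were kept by filterByExpr (minimum count 10, minimum total 15), normalized by TMM and tested with the quasi-likelihood test, with Benjamini-Hochberg adjustment over the 7378 tested genes and a threshold of 0.05. The filter kept genes that reached the minimum in at least 3 of the 12 libraries, whichever their group. A gene present in 1 group alone was thus kept only through that group, so it had to differ to be kept. CPM were scaled by TMM. Each SE was derived from the log2 fold change and its F statistic. No molecular identifiers were counted, and floors of 3 reads therefore cover counting error only. On simulated counts for FGFR3/4KO against WT with vehicle over 7378 genes, 200 of them changed, the test recovered 54.3% of changes of 1 and 89.6% of changes of 2 on the log2 scale, and 7.59% of its calls were false.

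Names came from 1998 identifier and symbol pairs in a table of the study, which is held only in part, and no value of it was used. Genes named are the 12 largest rises and 12 largest falls with at least 10 reads in each library of the higher group and no overlap, up to 6 called and 3 abundant uncalled members per list, all members of 2 lists, and 2 unnamed genes in each direction. Genes named in the account of runs were chosen after their values were seen. The comparison, lists and rule were chosen with earlier results of these data known, and the running medians were added after the data were examined. The alternatives fitted were DESeq2 1.42.0, the likelihood-ratio test of edgeR, upper-quartile normalization, other filters, a replicate block, a model of the vehicle libraries, a minimum fold, the 10 highest genes of each library left out, and each library left out in turn. Exact permutation tests used scipy 1.17.1.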

Additional observations from a re-analysis of the deposited data

Results flagged for a closer look

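For 39 of the 137 named genes the difference between FGFR3/4KO and WT was not the same with vehicle and with FGF18, by edgeR's interaction test at an adjusted p under 0.05, and 24 of the 39 had passed with vehicle. Over all tested genes 10.9% had such an interaction, and 240 of the 1038 vehicle calls did. Many named genes were chosen by their vehicle calls, so their share cannot be set against that of all tested genes. The values are the log2 fold change with FGF18 minus that with vehicle, so a negative value means that FGFR3/4KO stood lower relative to WT when FGF18 was present.

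Of the genes that were higher in FGFR3/4KO with vehicle, the difference was smaller or turned with FGF18 for these: Etv5 -1.86, Creb3l1 -1.59, ENSRNOG00000033090 -3.43, ENSRNOG00000013484 -1.78, Col6a2 -1.71, Capn6 -0.92, Timp2 -1.04, Cd82 -2.38, Fam20c -1.24, Lamp2 -1.39, Psap -0.73, C1qtnf1 -2.97, Hlx -1.14 and Foxn3 -1.23. It was larger with FGF18 for Fmod 0.79, Prelp 0.74, Foxm1 1.70, Cenpf 0.93 and Eprs 0.78.

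Of the genes that were lower with vehicle, all those with an interaction had a positive value: Auts2 2.10, Gfpt2 1.40, Rpa1 0.73, Rfc2 1.02 and Slc7a1 1.0. The vehicle difference is subtracted in these values, so choosing genes by their vehicle calls favours the opposite sign. No conclusion is drawn from the signs.

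Among genes that did not pass with vehicle, the value was negative for Fstl1 -0.61, Podnl1 -0.97, Scpep1 -0.73, Phlda1 -2.74, Ets2 -1.30, Btg1 -1.37 and Sqstm1 -1.14, and positive for Pmp22 1.30, Fam20b 0.76, Mapk14 0.77, Sh2b2 1.45, Pttg1 1.22, Ezh2 0.98, Rfc3 1.6 and Calu 0.67.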

How the results depend on the processing

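No count and no called gene reversed under the alternatives run, while 26 of 1118 values of named genes that had not passed changed sign and 9 such genes were called in some alternative. The 590 higher and 448 lower genes became 667 and 527 with edgeR's likelihood-ratio test, 507 and 325 with DESeq2, 558 and 503 with upper-quartile normalization, and 246 and 196 where a log2 fold change of at least 1 was asked for. A model of the 6 vehicle libraries alone called 780 higher and 685 lower and raised the members of gene lists called lower from 16 to 35, with 6250 genes tested. Leaving out 1 library at a time gave 421 to 681 genes higher and 258 to 530 lower, and the cause of these shifts was not tested. Of 78 named genes that passed, 51 were called in every alternative and 27 were lost in at least 1. Beside those given above, calls were lost without WT replicate 1, WT replicate 2, FGFR3/4KO replicate 1 or FGFR3/4KO replicate 3 for Itga6, Atf6b, Eprs, Cenpf and Tead3 (the last 2 also without WT replicate 3, and Tead3 with DESeq2), without WT replicate 2 or FGFR3/4KO replicate 3 for Vasn, and without FGFR3/4KO replicate 3 for Pole4 and Rfc2, WT replicate 3 for Disp1 and FGFR3/4KO replicate 1 for Gpat3. The replicate block ended the calls of Aff1, Col11a2, Mia, St6gal1, Fam20c, Eprs, Crim1, Foxn3 and Atp5j.

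The genes in runs of neighbours, 109 with the threshold of 0.4, were 71 with a threshold of 0.5, 64 in the vehicle libraries alone and 99 to 150 when 1 library was left out. These alternatives were chosen after seeing the data. The run from Umps to Mcm4 was found in every setting tried, with slightly different ends, and a run overlapping that from Anapc4 to Wfs1 was too. The run from Lrrc8d to Gpat3 was not found with a window of 15 genes or in the vehicle libraries alone. Those from Mpped2 to Mga and from Tbc1d20 to Stx16 were not found with a threshold of 0.5 or in the vehicle libraries alone. The latter was also not found with a window of 15 genes, or without WT replicate 1, WT replicate 3, FGFR3/4KO replicate 1 or FGFR3/4KO replicate 2. The run from Lrp6 to Ergic2 was not found with a threshold of 0.5, or without WT replicate 3, FGFR3/4KO replicate 1 or FGFR3/4KO replicate 3.

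Replicate numbers were shared between the groups. Samples with the same number did not deviate together in the vehicle groups (mean correlation 0.0073, from -0.0122 to 0.0416), so the numbers were not taken as pairs. With the replicate block 539 genes were higher and 375 lower.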
